A study of Mus musculus with 4 samples.

Results

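This account covers 45 mouse transcription factor genes that carry a homeobox or a paired box, lie outside the Hox clusters and are known mainly from lineages other than the epidermis. They were chosen by name, with earlier results of these data known. Each of the 45 was found among the 24453 gene symbols counted in every library. RNA was sequenced from sorted epidermal cells of newborn back skin, taken at postnatal day 0. In the mutant group (I53A, 2 libraries) the genotype was Ring1a-/- Ring1b-/I53A, which pairs loss of Ring1 (protein Ring1a) with a null and a catalytically inactive allele of Rnf2 (protein Ring1b), and the comparison group was labelled only as control (2 libraries). The sort in both groups kept EpCAM+ Sca1+ cells with high α6-integrin, a gate for basal cells of the interfollicular epidermis. The labels name neither the driver of the null allele nor the number of mice behind a library. The p-values below set a group difference against the spread between these libraries, estimated with the help of all tested genes. That spread may be technical in part.

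Homeobox and paired-box proteins bind DNA through the domains that name them and set regional or cell identity in the embryo. Many of their genes are held off outside their own lineage by Polycomb complexes, of which PRC1 places ubiquitin on histone H2A through Ring1a or Ring1b. In skin, Msx2 and Barx2 are known from the hair follicle and Prrx1 from the dermis, whereas the NK, CDX, VAX and most PAX genes are known from organs such as thyroid, gut, eye, kidney and muscle. Within the PAX family the proteins Pax1 and Pax9 have a paired domain without a homeodomain.

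Total counts were 15966412 and 21543385 in I53A replicates 1 and 2, and 17010432 and 15505018 in control replicates 1 and 2. The targeted gene Ring1 had 2.73 ± 0.257 CPM in I53A epidermis and 28.7 ± 6.43 CPM in control epidermis (SD, n = 2 each, edgeR adjusted p = 0.000172), where CPM are counts scaled to library size. Rnf2 averaged 58.9 ± 0.145 CPM in I53A and 52.1 ± 8.99 CPM in control libraries (SD, n = 2 each, edgeR adjusted p = 0.681), and its count does not read the base change of the I53A allele. Markers of the gate and the layer were present in both groups: Krt5, the keratin of basal cells, averaged 12760 ± 1791 CPM in I53A and 19350 ± 2613 CPM in control libraries, and Epcam 145.5 ± 18.4 CPM in I53A and 96.5 ± 15.1 CPM in control libraries (SD, n = 2 each). Neither was called (edgeR adjusted p = 0.138 for Krt5 and 0.0635 for Epcam). The 10 epidermal markers summed to 25300 and 23800 CPM in I53A and 32400 and 36500 CPM in control libraries, and Krt5 made up much of each sum. For the other gate markers the groups overlapped. Itga6 averaged 894 ± 157 CPM in I53A and 953 ± 36.7 CPM in control libraries, and Ly6a (Sca1) 17.5 ± 1.56 and 19.9 ± 3.95 CPM (SD, n = 2 each). Reads of the Y-linked gene Ddx3y numbered 1868 in I53A replicate 1 and 1 to 2 in the other 3 libraries, so the I53A pair held 1 male library, and the same 5 genes described below were called without it. Of the 45 genes only Cdx4 is X-linked, and it had no reads.

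Promoter windows are shown for Meis1, Meis2 and Vax1, the genes called higher in I53A epidermis for which RefSeq windows were matched, and for Hmx3, a gene with no reads in any library. Each runs from 250 bases before to 50 after the annotated start, on GRCm38.p6, 5′ to 3′ on the strand of the gene, with every CG in capitals. They lie at chr19:59170348-59170647 for Vax1 (minus strand), chr11:19018920-19019219 for Meis1 (minus strand), chr2:116064570-116064869 for Meis2 (minus strand) and chr7:131542713-131543012 for Hmx3 (plus strand).
Vax1: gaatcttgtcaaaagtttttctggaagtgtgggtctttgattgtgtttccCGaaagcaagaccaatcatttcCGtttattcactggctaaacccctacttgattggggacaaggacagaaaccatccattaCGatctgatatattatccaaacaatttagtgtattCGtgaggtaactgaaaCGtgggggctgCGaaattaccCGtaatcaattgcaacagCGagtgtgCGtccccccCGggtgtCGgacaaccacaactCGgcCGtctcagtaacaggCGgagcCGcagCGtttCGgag
Meis1: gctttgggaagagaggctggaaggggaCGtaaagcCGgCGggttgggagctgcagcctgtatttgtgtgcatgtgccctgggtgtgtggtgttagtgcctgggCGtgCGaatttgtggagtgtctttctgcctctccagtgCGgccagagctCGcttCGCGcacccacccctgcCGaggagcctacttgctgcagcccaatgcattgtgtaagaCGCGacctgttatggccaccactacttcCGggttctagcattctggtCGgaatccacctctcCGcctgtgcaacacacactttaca
Meis2: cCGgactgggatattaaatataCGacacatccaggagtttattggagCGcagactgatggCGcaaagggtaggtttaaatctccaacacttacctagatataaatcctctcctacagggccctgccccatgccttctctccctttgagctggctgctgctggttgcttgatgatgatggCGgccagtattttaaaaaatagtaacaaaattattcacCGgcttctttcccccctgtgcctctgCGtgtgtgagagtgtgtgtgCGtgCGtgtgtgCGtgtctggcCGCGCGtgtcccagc
Hmx3: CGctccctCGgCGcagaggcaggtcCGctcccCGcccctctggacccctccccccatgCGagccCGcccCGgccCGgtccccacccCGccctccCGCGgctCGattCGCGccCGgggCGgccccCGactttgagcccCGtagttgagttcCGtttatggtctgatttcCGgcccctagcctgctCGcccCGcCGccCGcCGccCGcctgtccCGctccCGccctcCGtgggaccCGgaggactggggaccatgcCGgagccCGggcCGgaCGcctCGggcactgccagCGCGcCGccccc

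These windows hold 17 CG for Vax1, 15 for Meis1, 13 for Meis2 and 39 for Hmx3. RefSeq windows were matched for 36 of them, with a median of 17 CG and an observed over expected CG ratio of 0.720, against 13 CG and 0.578 over the 17600 matched genes of the files. The ratio exceeded 0.6 in 24 of the 36 windows (66.7%), and in 48.5% of windows of all matched genes. The 3096 matched genes without a read anywhere had a median ratio of 0.163 and passed 0.6 in 6.27% of cases, whereas the 7 matched homeobox genes without a read had a median of 0.559, with Hmx3 at 0.911 and Hmx2 at 0.107. The 12 genes read only in I53A libraries had a median ratio of 0.838, from 0.410 in Pax2 to 0.998 in Vax1. Searched on both strands, TATAAA stood in 6 of the 36 windows (16.7%) and in 12.8% of all matched windows, and TAATTA, a core letter run of many homeodomain sites, in 3 (8.33%) and in 4.59%. A match describes letters in the window and not a bound site.

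**Figure D1:**
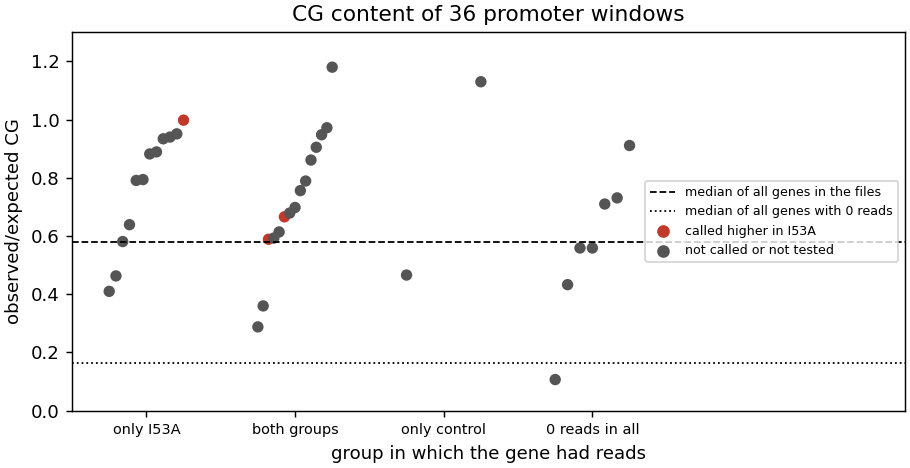
Observed over expected CG (y axis) in the 36 matched promoter windows, with genes placed by the libraries in which they had reads and red points for the genes called higher in I53A epidermis. The dashed line marks the median of all matched genes of the files (0.578) and the dotted line that of genes with 0 reads in every library (0.163), and Hmx2 alone lies below the dotted line.

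By detection, the 45 genes split into 12 read only in the I53A libraries, 4 read only in the control libraries, 20 read in both groups and 9 without a read. Over all 24453 symbols 6.02% were read only in I53A and 3.28% only in control libraries, against 26.7% and 8.89% of the 45 genes. Among rarely read genes the gap was smaller. Of the 16 members with 1 to 9 reads in all, 8 were read only in I53A and 4 only in control libraries, and of all 3179 symbols with as few reads 42.0% and 24.2% were. I53A replicate 2 was the deepest of the 4 libraries. Of the 12 genes read only in I53A, 7 had their reads in that library alone and 0 in I53A replicate 1 alone. Without that library 5 genes were read only in I53A and 16 had no read. Thinned to the smallest library, 11 genes were read only in I53A and 4 only in control.

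**Figure D2:**
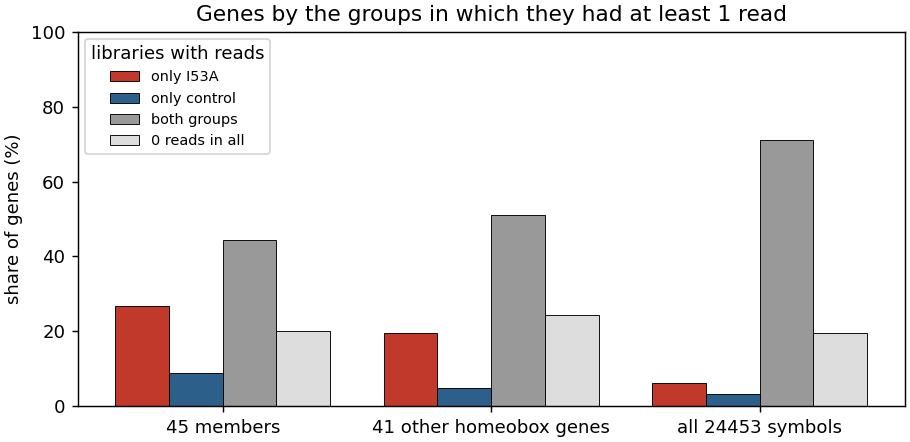
Share of genes (y axis, percent) with at least 1 read only in I53A libraries, only in control libraries, in both groups or in none, for the 45 members, 41 other non-Hox homeobox genes and all 24453 symbols. Genes read only in I53A made up 26.7% of the members, 19.5% of the other homeobox genes and 6.02% of all symbols.

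Most reads of the 45 genes came from 5 of them. Barx2, Msx2, Prrx1, Meis1 and Meis2 held 94.2% of the members' reads in I53A libraries and 97.2% in control libraries. These 5 were thus read in sorted control epidermis too, and which cells the reads came from was not tested. The other members together were read rarely in either group, and 13 of the 45 passed the filter on low counts (a CPM of about 0.606 in at least 2 libraries) and were tested. Of the 13, 8 would not have been kept by the control libraries alone. Most of these 8 reached the test through the I53A libraries, so a count over the tested members is not independent of how they came to be tested. Of the 13 tested genes 5 rose in I53A epidermis, Vax1, Pitx1, Meis1, Meis2 and Barx2 (edgeR, adjusted p under 0.05), and 8 did not pass. Over all 14550 tested genes 5.68% were called higher and 1.04% lower, 6.71% in all. Among the 5 members that would pass on control counts only, 3 rose, where the share over all such genes was 5.18%. In each of these 5 both I53A libraries lay above both control libraries, as in 22.1% of all such genes, and their median log2 fold change was 0.99 against -0.03. None of the 13 was called lower by edgeR, DESeq2 or limma-voom. At an unadjusted p under 0.05 edgeR gave 0 lower, where the share over all tested genes was 5.69%. Most of the 8 genes that the control libraries alone would not keep had little room to be lower, and 13 genes are few. The count of 0 is therefore not read as a result about the members. The calls leaned on having both controls: without control replicate 1 only Vax1 was called, and without control replicate 2 only Vax1 and Meis2.

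**Figure D3:**
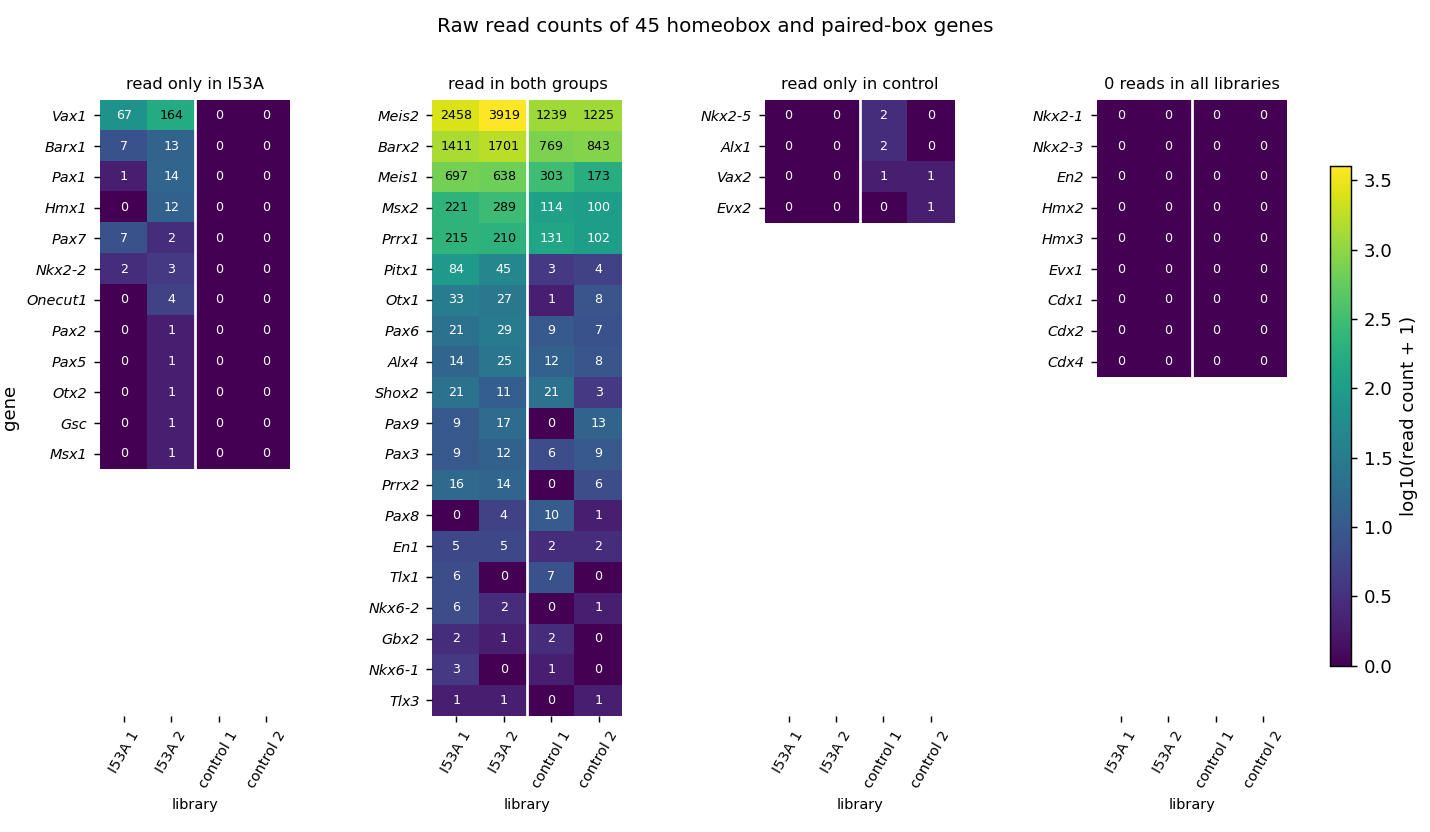
Raw read counts (printed in each cell, colour on a log10(count + 1) scale) of the 45 genes in I53A replicates 1 and 2 and control replicates 1 and 2, in blocks by the groups with reads. Vax1 stands at the top of the genes read only in I53A with 67 and 164 reads, and Meis2, Barx2, Meis1, Msx2 and Prrx1 lead the genes read in both groups.

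Vax1, which patterns the optic stalk and ventral forebrain (chromosome 19, 59166187 to 59170056, minus strand, GRCm38, which is mm10), was called without a single control read. It had 67 and 164 reads in I53A replicates 1 and 2 and 0 reads in both control libraries, or 4.26 and 7.22 CPM in I53A libraries. With the I53A reads taken as exact, the I53A level was at least 63.9-fold higher, set against 3 counts over the control group (edgeR adjusted p = 0.00341). Vax1 was called under every alternative tried. Its relative Vax2, of the ventral eye, had 0 reads in both I53A libraries and 1 read in each control library. The nearest protein-coding neighbours of Vax1 did not follow it: Shtn1, 90.1 kb away, averaged 171 ± 34.1 CPM in I53A and 192 ± 0.824 CPM in control libraries (SD, n = 2 each; edgeR adjusted p = 0.688), and Kcnk18, 49.2 kb away, had 7 and 0 reads in I53A and 9 and 2 in control libraries.

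Pitx1, a paired-like homeobox gene that sets hindlimb identity (chromosome 13, 55825051 to 55836192, minus strand), had 84 and 45 reads in I53A replicates 1 and 2, against 3 and 4 reads in control replicates 1 and 2. The I53A libraries lay above the controls but apart from each other, at 5.34 and 1.98 CPM, with controls at 0.178 and 0.265 CPM. The log2 fold change was 3.93 ± 0.90 (SE, edgeR adjusted p = 0.0235). The call was lost with limma-voom (adjusted p = 0.108), and in edgeR without control replicate 1 (0.236) and without control replicate 2 (0.184). Its neighbour H2afy, a variant histone gene 237 kb away, averaged 142 ± 1.98 CPM in I53A and 131.5 ± 11.4 CPM in control libraries (SD, n = 2 each; edgeR adjusted p = 0.765), and Catsper3, 16.1 kb away, had 4 and 5 reads in I53A and 1 and 2 reads in control libraries.

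The MEIS genes, which encode homeodomain partners of Hox and Pbx proteins, rose together from levels already present in control epidermis. Meis2 (chromosome 2, 115863064 to 116065839, minus strand) had 156 and 173 CPM in I53A replicates 1 and 2, and 73.7 and 81.1 CPM in control replicates 1 and 2. Both I53A libraries lay above both controls, with a mean of 164 ± 11.5 CPM in I53A and 77.4 ± 5.24 CPM in control libraries (SD, n = 2 each), a log2 fold change of 1.09 ± 0.15 (SE, edgeR adjusted p = 0.00151). Meis1 (chromosome 11, 18879817 to 19018985, minus strand) had 44.3 and 28.1 CPM in I53A libraries, and 18.0 and 11.45 CPM in control libraries. The groups did not overlap, and the log2 fold change was 1.28 ± 0.29 (SE, edgeR adjusted p = 0.0237). Without control replicate 1 the calls of Meis2 (edgeR adjusted p = 0.0635) and Meis1 (0.0724) were lost, and without control replicate 2 that of Meis1 (0.267).

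Neighbours of the MEIS genes gave no call. BC052040, 84.3 kb from Meis2, had a log2 fold change of 0.03 ± 0.25 (SE, edgeR adjusted p = 0.976), and Tmco5, on the other side, had no reads. Spred2, an inhibitor of Ras signalling 905 kb from Meis1, averaged 209 ± 24.7 CPM in I53A and 276.5 ± 11.1 CPM in control libraries (SD, n = 2 each; edgeR adjusted p = 0.141). Etaa1, 926 kb from Meis1 on the other side, had a log2 fold change of -0.09 ± 0.17 (SE, edgeR adjusted p = 0.862).

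Barx2, a BarH-like homeobox gene (chromosome 9, 31846044 to 31913462, minus strand), was the member with the highest level per length in both groups. It had 89.7 and 74.9 CPM in I53A replicates 1 and 2, and 45.7 and 55.8 CPM in control replicates 1 and 2. The I53A libraries lay above both controls, and the log2 fold change was 0.70 ± 0.17 (SE, edgeR adjusted p = 0.0403). The call was lost when either control was left out (edgeR adjusted p = 0.420 without replicate 1 and 0.160 without replicate 2). Arhgap32, 203 kb away, averaged 361.5 ± 29.3 CPM in I53A and 321 ± 0.579 CPM in control libraries (SD, n = 2 each; edgeR adjusted p = 0.588). Tmem45b, 382 kb away on the other side, had 20 and 60 reads in I53A and 5 and 15 reads in control libraries (edgeR adjusted p = 0.251). The relative Barx1, of stomach and tooth mesenchyme, had 7 and 13 reads in I53A and none in control libraries, and was not tested. With the I53A reads taken as exact, that is at least 5.54-fold higher, set against 3 counts over the control group.

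**Figure D4:**
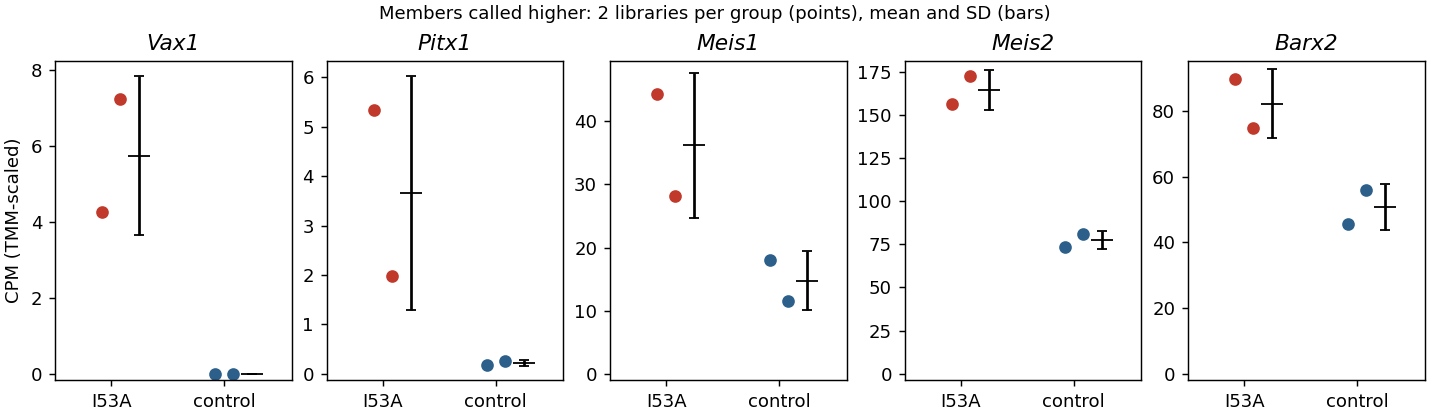
CPM (y axis, each panel on its own linear scale from 0) of the 5 genes called higher, with 1 point per library, and the mean and SD of n = 2 beside them. Both I53A points lie above both control points in each panel, and the SD is widest relative to the mean for Pitx1 in I53A (3.66 ± 2.37 CPM).

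Per length (CPM per kb of the longest GENCODE transcript), Barx2 was at 41.8 in I53A and 25.8 in control libraries and Meis2 at 29.9 in I53A and 14.1 in control libraries. Below them, Vax1 was at 5.50 in I53A and at 0 in control libraries, Msx2 at 5.46 in I53A and 2.73 in control libraries, and Meis1 at 4.79 in I53A and 1.95 in control libraries. In I53A the values of these 3 genes overlapped between libraries. The Vax1 value rests on a transcript length of 1044 bases. The annotation behind the counts is not given, so its place among the 3 depends on that length. Prrx1 was at 1.76 in I53A and 1.11 in control libraries, and Pitx1 at 1.49 in I53A and 0.0904 in control libraries. Every other tested member was under 0.6 CPM per kb in both groups.

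Msx2, a homeobox gene needed for the hair shaft, did not pass the threshold. It had 14.1 and 12.7 CPM in I53A libraries and 6.78 and 6.62 CPM in control libraries, a log2 fold change of 0.99 ± 0.28 (SE, edgeR adjusted p = 0.0662). The groups stood apart, and it passed once GC content and transcript length were offset (edgeR adjusted p = 0.0466). Msx1, known from tooth and palate, had a single read, in I53A replicate 2.

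The paired-like genes of limb and face mesenchyme did not pass apart from Pitx1. Prrx1, of limb and dermal mesenchyme, had 13.7 and 9.25 CPM in I53A and 7.79 and 6.75 CPM in control libraries (log2 fold change 0.63 ± 0.32, SE, edgeR adjusted p = 0.333). Its relative Prrx2 had 16 and 14 reads in I53A and 0 and 6 reads in control libraries (edgeR adjusted p = 0.408). Both sat above the controls in each I53A library, within the error of the test. Alx4, a craniofacial gene, had 14 and 25 reads in I53A and 12 and 8 reads in control libraries. Shox2, of limb and sinoatrial node, had 21 and 11 reads in I53A and 21 and 3 reads in control libraries, so its groups overlapped. Alx1 had no reads in I53A libraries and 2 and 0 in control libraries. Alx4 and Shox2 each overlap a gene on the opposite strand that was read far more (Ext2 with 5128 and 3740 reads in I53A and 2051 and 2921 in control libraries, and Rsrc1 with 473 and 917 reads in I53A and 656 and 663 in control libraries). The strand setting of the counts is not given in the sources used here, so reads of these partners cannot be told apart from theirs.

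Fibroblast markers were measured beside these mesenchymal genes. The summed level of 16 fibroblast markers was 3680 and 4000 CPM in I53A libraries and 3040 and 3270 CPM in control libraries, none of the 16 was at 0 in every library, and 4 of the 16 rose with none lower. The control libraries alone would keep 15 of them, of which 4 rose, where 5.18% of all such genes did. In 12 of the 16 both I53A libraries lay above both controls, as in 22.1% of genes the control libraries alone would keep. Among the 4, Col5a1, a fibrillar collagen chain, had a log2 fold change of 1.18 ± 0.14 and the microfibril gene Fbn1 1.17 ± 0.15 (SE, edgeR adjusted p = 0.000995 and 0.00124). The fibroblast receptor gene Pdgfra did not pass, at 11.5 ± 4.71 CPM in I53A and 6.24 ± 0.768 CPM in control libraries (SD, n = 2 each), though both I53A libraries lay above both controls. Hair follicle markers, which bear on Msx2 and Barx2, went both ways: of 9 tested 2 rose (Lhx2 and Krt79) and 2 fell (Tchh and Krt71), where 5.68% and 1.04% of all tested genes did. Their summed level was 943 and 1040 CPM in I53A and 694 and 692 CPM in control libraries. Their part in the results was not tested. In bulk libraries of sorted cells, more cells of a type and more RNA per cell cannot be told apart.

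**Figure D5:**
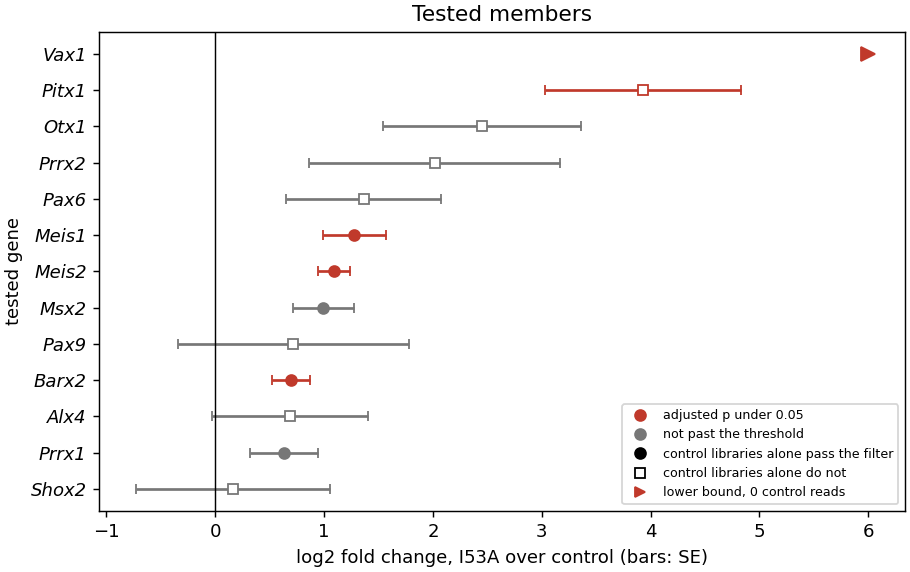
Log2 fold change of the 13 tested members, I53A over control (x axis, bars are SE of the edgeR fit), in red where the adjusted p was under 0.05. Filled circles mark the 5 genes that would pass the filter on control counts only and open squares the others, and the arrowhead for Vax1, also not kept by the controls alone, is a lower bound set against 3 counts over the control group.

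Of the 8 PAX genes 4 were read only in I53A and 4 in both groups, and neither of the 2 tested was called. Over all symbols 6.02% were read only in I53A, and 42.0% of those with 1 to 9 reads in all. Pax6, of eye and pancreas, had 21 and 29 reads in I53A and 9 and 7 reads in control libraries. Both I53A libraries lay above both controls, with a log2 fold change of 1.36 ± 0.71 that did not pass (SE, edgeR adjusted p = 0.358). Pax9, of tooth and pharyngeal pouch, had 9 and 17 reads in I53A and 0 and 13 in control libraries, and its direction turned without control replicate 1. These were the only PAX genes tested. Pax3, a gene of neural crest and the melanocyte lineage, had 9 and 12 reads in I53A and 6 and 9 in control libraries, and none of 6 tested melanocyte markers was called, with a summed level of 37.9 and 36.8 CPM in I53A and 26.9 and 32.8 CPM in control libraries for the list. Pax7, which marks muscle stem cells, had 7 and 2 reads in I53A and none in control libraries. With the I53A reads taken as exact, that is at least 2.49-fold higher, set against 3 counts over the control group. The 11 skeletal muscle markers summed to 1.14 and 4.93 CPM in I53A and 4.70 and 4.30 CPM in control libraries. Of the defining muscle genes, Myod1 had 0 and 6 reads and Myf5 0 and 3 reads in I53A, and both had none in control libraries. The part of muscle cells in the Pax7 reads was not tested. Pax1, of the sclerotome, had 1 and 14 reads in I53A and none in control libraries, so nearly all came from 1 library. Pax8, of thyroid and kidney, was read most in control replicate 1, with 0 and 4 reads in I53A and 10 and 1 in control libraries, and was not tested. Pax2 and Pax5 had 1 read each, in I53A replicate 2.

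The genes of head and neural tube patterning were rarely read except for Otx1. Otx1, of the forebrain, had 33 and 27 reads in I53A and 1 and 8 reads in control libraries, or 2.10 and 1.19 CPM in I53A and 0.0595 and 0.530 CPM in control libraries. Both I53A libraries lay above the controls, which differed widely from each other, and the log2 fold change of 2.45 ± 0.91 did not pass (SE, edgeR adjusted p = 0.161). En1, of midbrain and ventral limb ectoderm, had 5 reads in each I53A library and 2 reads in each control library. Gbx2, of the hindbrain, had 2 and 1 reads in I53A and 2 and 0 in control libraries. Otx2 and the organizer gene Gsc had 1 read each in I53A replicate 2, and En2, of the cerebellum, had none.

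The NK genes stayed at 6 reads or fewer in any library. Nkx2-1 of lung and thyroid and Nkx2-3 of gut and spleen had no reads, and the heart gene Nkx2-5 had 0 reads in I53A and 2 and 0 reads in control libraries. Nkx2-2, of ventral neural tube and pancreas, had 2 and 3 reads in I53A and none in control libraries. Nkx6-2, a glial gene, had 6 and 2 reads in I53A and 0 and 1 in control libraries, a pooled ratio of 6.64 (95% counting interval 0.891 to 295). For Nkx6-1, of pancreatic β cells, the counts were 3 and 0 in I53A and 1 and 0 in control libraries (ratio 2.49, interval 0.200 to 131). Both intervals include 1, so no difference was detectable at this depth. Nkx6-2 shares its locus with Inpp5a (268 and 461 reads in I53A and 327 and 269 in control libraries) and Nkx2-2 with Nkx2-2os (0 reads in I53A and 0 and 4 in control libraries). Vax2 likewise overlaps Vax2os, with 4 and 0 reads in I53A and 1 and 10 in control libraries. Each partner lies on the opposite strand, with the same limit as for Alx4.

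The remaining members were near or at 0. Hmx1, of eye and ear, had 0 and 12 reads in I53A and none in control libraries, so all came from I53A replicate 2. Hmx2 and Hmx3, of the inner ear, had no reads, although the Fgfr2 gene that overlaps both on the opposite strand had 24086 and 28373 reads in I53A and 25943 and 25302 reads in control libraries. Onecut1, of liver and pancreas, had 0 and 4 reads in I53A and none in control libraries. Tlx1, of the spleen, had 6 and 0 reads in I53A and 7 and 0 in control libraries, and Tlx3, of sensory neurons, had 1 read in each library except control replicate 1. Of the posterior genes, Cdx1, Cdx2, Cdx4 and Evx1 had no reads and Evx2, beside the HoxD cluster, had 1, in control replicate 2. For the 9 genes without a read, a count of 0 allows up to 3 counts, or 0.132 to 0.199 CPM depending on the library.

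Other homeobox genes, listed by family, were set beside the members. Their lists, like the members, were drawn up with earlier results of these data known. Of 20 genes of the same families 9 had no reads and 3 were tested. All 3 rose, where 5.68% of all tested genes did, but 2 of them passed the filter only with the help of the I53A libraries. The control libraries alone would keep 1, Meis3, where 5.18% of all such genes rose, so these calls do not describe the families. Meis3, the remaining MEIS gene, had 368 and 518 reads in I53A and 138 and 135 reads in control libraries (log2 fold change 1.43 ± 0.24, SE, edgeR adjusted p = 0.00517). Onecut2, of liver and retina, had 57 and 63 reads in I53A and 1 and 0 reads in control libraries, a ratio of 99.6 by pooled CPM (95% counting interval 17.5 to 3970, edgeR adjusted p = 0.00708). The calls of Meis3 and Onecut2 were lost without control replicate 2 (edgeR adjusted p = 0.0709 for Meis3 and 0.0857 for Onecut2) and without control replicate 1 (0.101 for Meis3 and 0.0754 for Onecut2).

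Of 41 non-Hox homeobox genes of other families 15 were tested, 2 rose, 1 fell and 12 did not pass. The control libraries alone would keep 13 of the 15, of which 1 rose, where 5.18% of all such genes did. Emx2 was not among the 13. Emx2, of cortex and urogenital tract, had 88 and 182 reads in I53A and 3 and 1 reads in control libraries (log2 fold change 5.71 ± 0.72, SE, edgeR adjusted p = 0.00066), and its call held without each library in turn. Cux1, a widely expressed CUT homeobox gene, rose to 282 ± 15.8 CPM in I53A, against 186 ± 25.2 CPM in control libraries, and Zhx2, a zinc finger homeobox repressor, fell to 90.9 ± 8.37 CPM in I53A, against 158 ± 1.54 CPM in control libraries (SD, n = 2 each; edgeR adjusted p = 0.0366 and 0.00809). Without control replicate 1 or 2 the calls of Cux1 (edgeR adjusted p = 0.442 and 0.148) and Zhx2 (0.121 and 0.126) were lost. Of 8 TALE partners, homeodomain proteins that pair with Meis and Hox proteins, 7 were tested and 1 rose, Pknox2, with 104 and 118 reads in I53A and 27 and 2 reads in control libraries (edgeR adjusted p = 0.0291, and 0.219 without control replicate 2 and 0.0607 with limma-voom). Pknox2 passed the filter only with the help of the I53A libraries, and 0 of the 6 TALE genes that the control libraries alone would retain were called higher. Over all tested genes 5.68% were called higher, and 5.18% of those the control libraries alone would keep. Neither TALE count is read as a result about these genes.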

How the data were processed

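Per the labels' protocols, back skin was digested, cells were sorted, RNA was amplified (Ovation RNA-seq System V2) and sequenced as 100-nucleotide single reads. HTSeq 0.6.1, TopHat2 2.0.13, DESeq2 1.6.3, Cufflinks 2.2.1 and build mm10 appear in the submitters' processing notes with no role or order. Neither the annotation nor the strand setting is given in the sources used here. Raw counts were deposited by the authors per gene symbol, whole numbers that are not normalized, and 0 of the rows lacked a gene name.

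Groups and replicate numbers came from the sample titles. Genes passing filterByExpr (minimum count 10, minimum total 15; 14550 genes) entered edgeR 4.0.16 under R 4.3.3 (TMM scaling, quasi-likelihood test without a block, two-sided, Benjamini-Hochberg adjusted p under 0.05 over all tested genes). Fold changes are I53A over control, the SE is the log2 fold change over the root of its F statistic, and CPM are counts over TMM-scaled library sizes. With no control reads a fold is a bound against 3 counts over the control group that takes the I53A count as exact. With 1 to 3 reads a pooled ratio has an exact binomial interval at 95%. Intervals cover counting error only, and floors only that of the group without reads, since reads carry no molecular identifiers. Replicates differed by more than sampling noise (chi-square per degree of freedom 44.3 for I53A and 13.6 for control). Tested on counts simulated for I53A over control (14550 genes, 50 per fold size), it found 4% of 1.5-fold, 34% of 2-fold, 80% of 4-fold and 96% of 8-fold changes and made 6 false calls.

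Coordinates, neighbours, lengths and GC content were taken by symbol from GENCODE M21 (GRCm38), and promoter windows from RefSeq on GRCm38.p6 (the most upstream start of each gene). Alternatives tried were upper-quartile and RLE scaling, limma-voom (limma 3.58.1), DESeq2 1.42.0, 2 other filters, offsets for GC content and length, the replicate number as a block with and without these offsets, and each library left out. The earlier quasi-likelihood fit was added after seeing the data.

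The members and lists were chosen with earlier results of these data known. The text accounts for every member, and names Ring1 and Rnf2, protein-coding neighbours of called members, and up to 2 called genes in each direction of each list. The most abundant genes of lists without a call are not named, and 1 called gene of the same-family list is not reported here. Other marker lists gave 1 gene lower of 10 epidermal, 1 higher of 3 tested Merkel, and no call among 4 Schwann, 4 endothelial and 2 immune genes tested. Any other gene named, such as Krt5, Epcam, Ddx3y, Pdgfra, Myod1, Myf5 or overlapping genes, serves as a check and was picked after its values were seen.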

Additional observations from a re-analysis of the deposited data

How the results depend on the processing

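Of 179 alternative fold changes of the 13 tested members, 166 kept their direction and side of the threshold, 8 lost a call, 2 gained one and 3 turned. Those that turned were Pax9 without control replicate 1 (log2 fold change -0.35) and Shox2 without control replicate 2 (-0.55) and without I53A replicate 1 (-0.62), none of them called. With 1 library left out Pax9 lay between -0.35 and 6.65 and Shox2 between -0.62 and 2.06. Leaving out 1 library gave 297 to 1519 called genes, against 977, and 1 to 5 members called higher, against 5, while no member was called lower. Called genes numbered 297 without control replicate 1, 326 without control replicate 2, 1487 without I53A replicate 1 and 1519 without I53A replicate 2. A lone library was assumed to vary like the pair of the other group. With the replicate block, 1274 genes and the same 5 members were called. The shared numbers were not treated as pairs: same-numbered libraries deviated with a correlation of 0.04. The replicate block together with GC content and length offsets called 1786 genes, 69.9% of them higher against 84.5%, and 6 members higher. These 6 were the 5 members and Msx2, as with the offsets alone (1145 genes, 75.3% higher). limma-voom called 4 members, without Pitx1. Detection depended in part on the minimum. With at least 3 reads over a group required, 19 members fell short in both groups and 0 passed only in control. At this minimum 10 passed only in I53A, against 12 with any read, and 16 in both groups, against 20. Leaving out 1 library gave 9 to 16 members at 0, 5 to 16 read only in I53A, 2 to 6 read only in control and 16 to 19 read in both groups. The cause of these differences was not tested. Depth limits the 32 members that were not tested, which had at most 36 reads over the 4 libraries.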
